A study of Mus musculus with 6 samples.

Results

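Expression of the proteasome genes was examined in CD4 T cells cultured under conditions meant to steer them toward follicular helper T (Tfh) cells, with or without SAP, the adaptor protein that the gene Sh2d1a encodes. The genes were chosen by symbol: Psma, Psmb, Psmc, Psmd, Psme, Psmf or Psmg followed by a number. In all, 49 such genes among the 18193 measured had a probe set assigned to them alone, and each was represented by the one with the highest mean over the arrays. The symbols Psme2 and Psme2b, a near-copy of it, shared their only probe set, which was fitted among all probe sets but not as a gene. Of the 49, 31 encode constitutive subunits of the 26S particle, 3 encode subunits of the immunoproteasome, 4 encode activators or an inhibitor and 7 encode assembly chaperones. Psma8 and Psmb11 encode subunits of germ cells and thymic epithelium. Psmc3ip and Psme3ip1 match by name only: they encode a recombination cofactor and a protein that binds the PA28 gamma activator.

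The study compared 3 arrays of wild-type (WT) cells with 3 arrays of SAP-deficient cells. Both genotypes carried the OT-II transgene, a T cell receptor specific for an ovalbumin peptide, and came from spleen and lymph nodes. Sorted naive cells (CD4+, CD44 low, CD62L+, CD25-) were stimulated for 3.5 days with the peptide on splenocytes that lacked T cells and had been treated with mitomycin C. The medium held IL-21 at 50 ng/ml and IL-6 at 100 ng/ml. Antibodies against TGF-β (20 µg/ml) and IL-4 (10 µg/ml), and others against IL-12 and IFN-γ, were in all cultures. Whether arrays came from separate mice or cultures, and the age and sex of the mice, is not stated in the labels. The p-values therefore measure array-to-array spread, which may be technical. No purification after culture is described, and in such bulk RNA fewer cells of a type and less RNA per cell cannot be told apart.

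The proteasome is the main protease for ubiquitin-tagged proteins in the cytosol and nucleus. Its 20S core is a barrel of outer alpha rings and inner beta rings, in which beta1, beta2 and beta5 cut the substrate, and the 19S particle on its ends binds, unfolds and feeds in the substrate with a ring of ATPases. In lymphocytes, and in other cells after exposure to interferon, the catalytic subunits are replaced by beta1i (Psmb9), beta2i (Psmb10) and beta5i (Psmb8), and the PA28 cap made of Psme1 and Psme2 can replace the 19S particle. This changes which peptides reach MHC class I.

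The labels were checked on the targeted transcript. Sh2d1a was at 9.14 ± 0.53 in WT and 4.83 ± 0.69 in SAP-deficient arrays (log2, SD, n = 3 each). The change, -4.31 ± 0.38 (SE), had an adjusted p of 0.107 in the genotype fit (limma), with the SAP-deficient mean below the median of all probe sets. Arrays with the same number resembled each other across genotypes: over probe sets of other genes, deviations from the genotype means correlated at 0.50 to 0.72 within these 3 pairs and at most at -0.091 elsewhere. Deviations from a genotype mean cancel out over its arrays, so positive values within pairs bring negative ones elsewhere. The numbers come from accession order, so such a pairing rests on the data alone. With the matched arrays as a block, Sh2d1a had an adjusted p of 9.88e-07 (limma) and was the 1 gene called. Of 7 T cell markers, the 6 measured lay above the median of all probe sets (5.75), with list means of 11.33 to 11.65 in WT and 11.27 to 11.62 in SAP-deficient arrays. The 8 measured B cell markers of 9 averaged 5.74 to 5.98 and 5.56 to 5.80, with 4 of the 8 below that median. The 10 measured macrophage and dendritic cell markers of 11 averaged 5.94 to 6.18 and 5.86 to 6.22. The 6 measured MHC class II genes of 7 were brighter, at 8.07 to 8.38 and 7.78 to 8.27. Their mean levels ran from 4.87 (Ciita) to 10.04 (Cd74). The 4 measured CD8 and natural killer (NK) cell markers of 5 averaged 6.43 to 6.52 and 6.56 to 6.64. All 8 B cell and all 6 MHC class II genes had lower means in SAP-deficient arrays. So did 5 of the 10 macrophage and dendritic cell markers and 1 of the 4 CD8 and NK cell markers. None of these genes passed adjustment in either fit (limma).

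Transcripts of the proteasome were bright in every array and differed little between the genotypes. Apart from Psma8 and Psmb11, at mean levels of 4.87 and 4.01, the genes had mean levels from 8.19 to 12.72 (log2). Changes, the mean log2 level of SAP-deficient arrays less that of WT arrays, ran from -0.057 (Psmb11) to 0.18 (Psma8), and among the 47 bright genes from -0.039 (Psmd11) to 0.15 (Psmd3). None of the 49 passed an adjusted p of 0.05 (limma, Benjamini-Hochberg over 18193 genes; 0% of all genes passed), and 0 had an unadjusted p under 0.05, against 1.46% of all genes (0.605% higher, 0.857% lower). In this fit the 95% intervals of the 47 bright genes all lay between -0.34 (Psmd5) and 0.39 (Psmc3ip, which matches by name only). These ends correspond to 1.27-fold lower and 1.31-fold higher. With the matched arrays as a block the intervals lay between -0.16 (Psmd7) and 0.28 (Psmd3). Each interval is for a gene taken alone and reflects array-to-array spread, which may be technical.

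Small positive values were in the majority. Of the 49 genes 39 lay above 0 and 10 below, with a median of 0.037, while 53.3% of all genes lay above 0 with a median of 0.0078. Among the 10934 genes brighter than the median probe set, 59.7% lay above 0 with a median of 0.020. Without probe sets under the 75th percentile of level, 64.5% of the 6758 remaining genes lay above 0 with a median of 0.026. Of the 47 proteasome genes left there, 38 lay above 0. After a second quantile normalization, 35 of the 49 lay above 0 (median 0.026), and the share over all genes was 49.6%. The majority was lost when WT array 3 alone was left out, which leaves SAP-deficient array 3 unmatched. Then 23 genes lay above 0 and 26 below, and the median was -0.0029. Without both arrays numbered 3, 35 of the 49 lay above 0 (52.2% of all genes did), with a median of 0.026. By the order of the arrays, 4 genes had every SAP-deficient array above every WT array (2.38% of all genes did): Psmb2, Psmd3, Psmb10 and Psma8. None had the opposite order (2.94% of all genes did, 5.32% in both directions together). Between arrays of the same number, 16 of the 49 were higher in SAP-deficient cells all 3 times, as were 15.6% of all genes and 19.2% of genes above the median level.

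**Figure D1:**
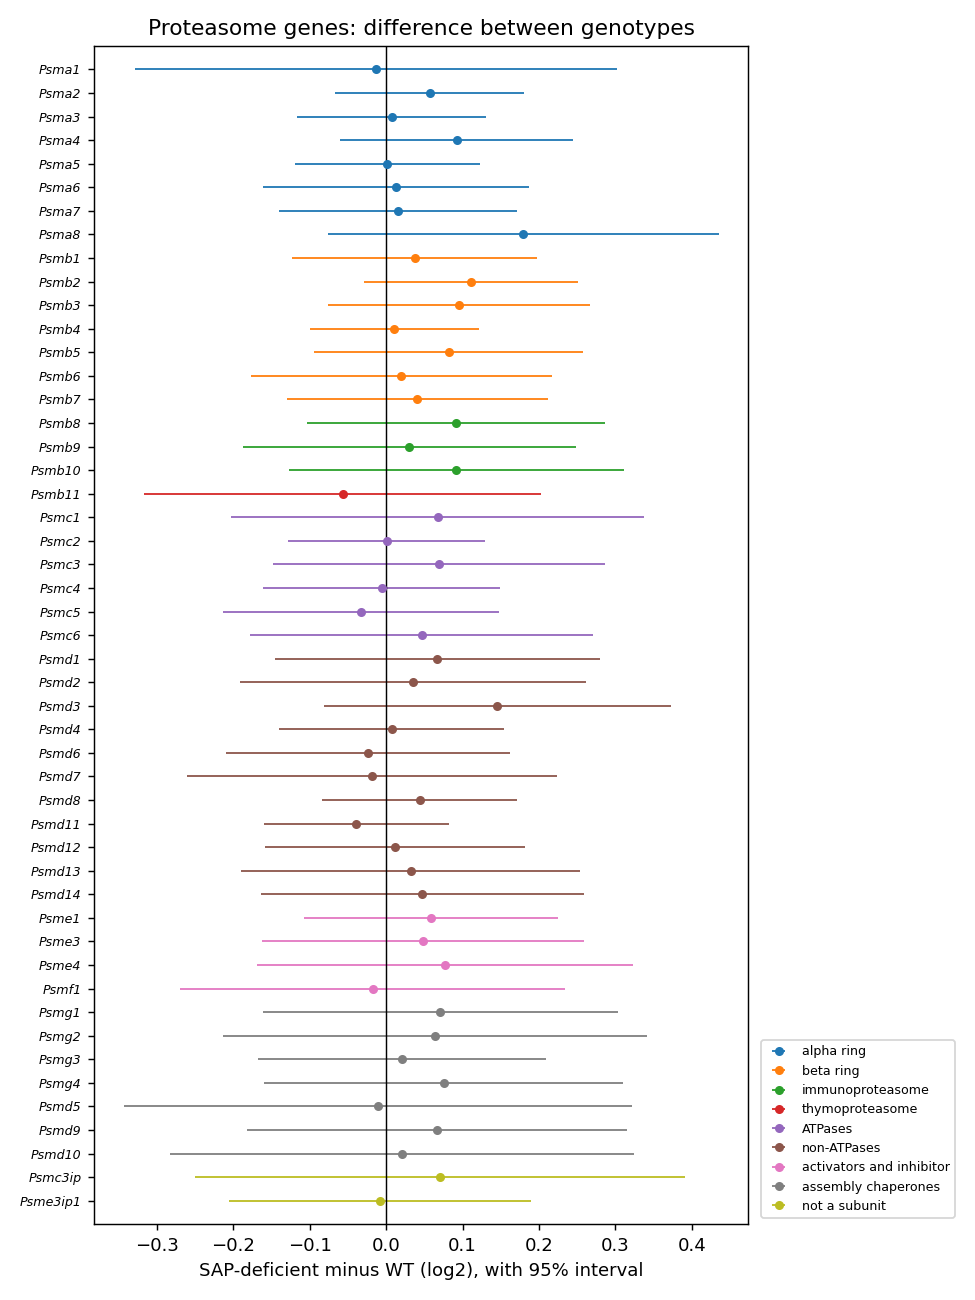
Difference between SAP-deficient and WT arrays for each of the 49 proteasome genes (log2, x axis), as points with the 95% interval of the limma fit (3 arrays against 3), coloured by class. Every interval includes 0; most points lie slightly to the right of it, between -0.039 and 0.15 apart from Psma8 and Psmb11.

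The immunoproteasome subunits were well expressed in both genotypes, with changes under 0.1 log2 units. Psmb8 (Entrez Gene 16913), the beta5i subunit, was at 11.78, 11.57 and 11.62 in WT arrays 1 to 3 and 11.81, 11.64 and 11.78 in SAP-deficient arrays 1 to 3. Array 1 was highest in each genotype and array 2 lowest, and the groups overlapped. The change was 0.092 ± 0.084 (SE), with a 95% interval -0.10 to 0.29 and, between arrays of the same number, 0.029, 0.078 and 0.17.

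Psmb9 (Entrez Gene 16912), the beta1i subunit, was at 10.49, 10.55 and 10.36 in WT arrays 1 to 3 and 10.42, 10.57 and 10.49 in SAP-deficient arrays 1 to 3. Here array 2 was highest in each genotype. Its change was 0.030 ± 0.093 (SE), and the values between equally numbered arrays were -0.065, 0.024 and 0.13, so they differed in sign. Psmb10 (Entrez Gene 19171), the beta2i subunit, was at 9.89, 9.91 and 9.77 in WT arrays 1 to 3 and 9.92, 9.93 and 9.99 in SAP-deficient arrays 1 to 3. The 3 SAP-deficient arrays lay just above the 3 WT arrays, with a gap of 0.013 between the nearest of them. Its change was 0.091 ± 0.094 (SE), of which array 3 had the largest part (0.032, 0.022 and 0.22 by number).

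Psme1 (Entrez Gene 19186), the alpha subunit of PA28, was at 12.39, 12.27 and 12.39 in WT arrays 1 to 3 and 12.47, 12.29 and 12.48 in SAP-deficient arrays 1 to 3. Both arrays numbered 2 were the lowest of their genotype, and the change was 0.059 ± 0.071 (SE), with 0.080, 0.012 and 0.084 by number. The probe set that Psme2 shares with Psme2b was at 12.27, 12.03 and 12.33 in WT arrays 1 to 3 and 12.36, 12.07 and 12.34 in SAP-deficient arrays 1 to 3. It too was lowest in both arrays numbered 2, at a change of 0.043 ± 0.11 (SE) in the fit over all probe sets. For each of Psmb8, Psmb9, Psmb10 and Psme1 the adjusted p was 1.00 (limma). With the matched arrays as a block, the unadjusted p-values (limma) were 0.0803 for Psmb8, 0.608 for Psmb9, 0.183 for Psmb10 and 0.169 for Psme1, and the adjusted ones 0.783 to 0.928. Psmb8, Psmb10 and Psme1 kept a positive change in every alternative that was run, while Psmb9 ran from -0.022 to 0.072. The constitutive Psma4, Psmb2, Psmb3, Psmb5, Psmc3 and Psmd3 kept a positive change too. All alternatives draw on the same arrays.

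**Figure D2:**
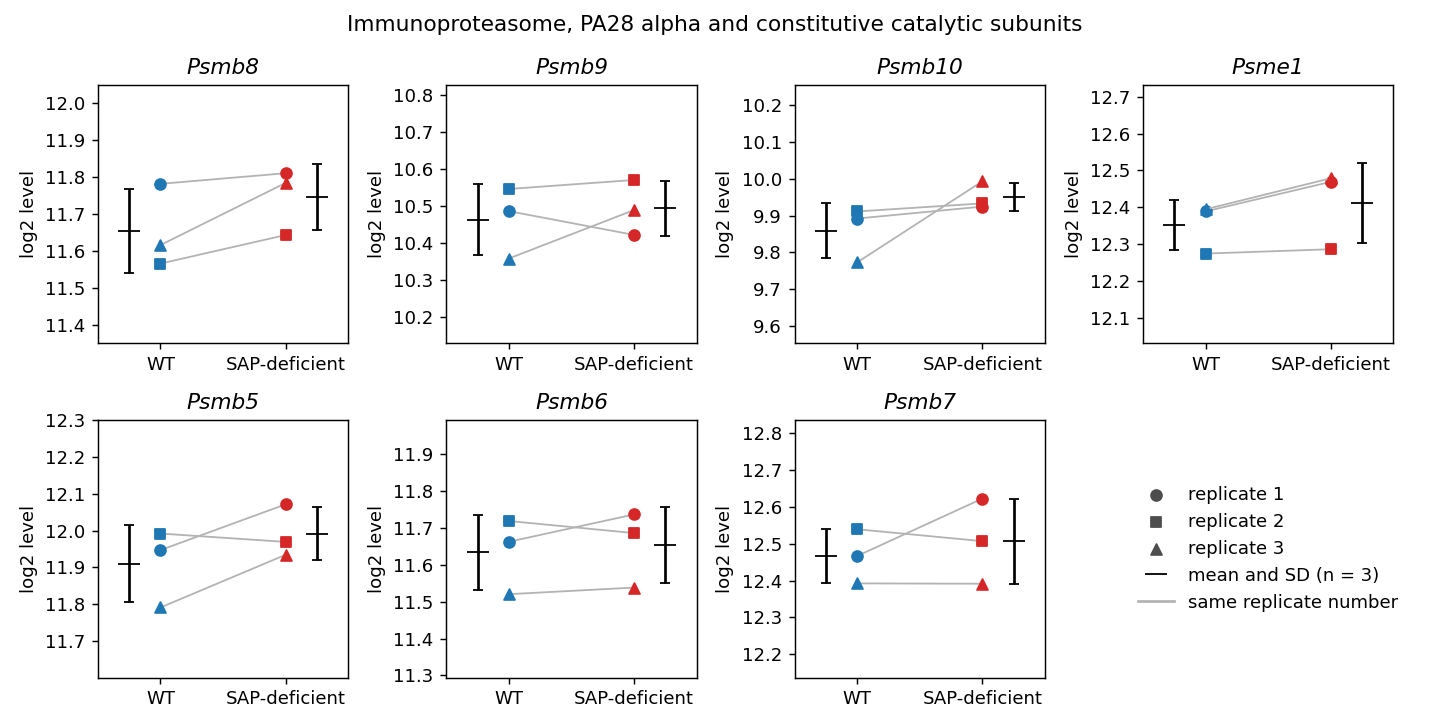
Log2 level of Psmb8, Psmb9, Psmb10, Psme1 and the constitutive catalytic subunits in each WT (blue) and SAP-deficient (red) array, with the mean and SD of each genotype (n = 3) and grey lines between arrays of the same number; each y axis spans the same width but is centred on its gene. Psmb10 is the only one of the 7 whose genotypes do not overlap; for Psmb8 and Psme1 all 3 lines slope upward from WT to SAP-deficient.

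Promoter windows are shown for 5 of these genes because interferon-induced and constitutive subunits are known to be controlled through different elements. The windows run from 250 bases before to 50 after the annotated start (RefSeq, GRCm38.p6), are written 5′ to 3′ on the gene's strand, and were found for 43 of the 51 genes. They were searched on both strands for 2 copies of TTTC separated by any 2 bases (the core of an interferon-stimulated response element), TTCNNNGAA (the palindrome bound by STAT factors) and TGACNNNGC (a core of antioxidant elements, bound by NFE2L1 and NFE2L2); matches are in capitals, and none overlapped another. Psmb9 is at chr17:34187281-34187580, minus strand; Psmb8 at chr17:34197945-34198244, plus strand; Psme1 at chr14:55578244-55578543, plus strand; Psmb5 at chr14:54617946-54618245, minus strand; and Psmb6 at chr11:70525107-70525406, plus strand.
Psmb9: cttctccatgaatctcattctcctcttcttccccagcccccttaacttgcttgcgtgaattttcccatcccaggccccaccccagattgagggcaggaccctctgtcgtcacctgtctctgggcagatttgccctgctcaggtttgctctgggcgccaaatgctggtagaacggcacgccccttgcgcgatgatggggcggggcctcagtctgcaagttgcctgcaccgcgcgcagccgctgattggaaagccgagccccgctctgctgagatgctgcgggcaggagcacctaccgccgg
Psmb8: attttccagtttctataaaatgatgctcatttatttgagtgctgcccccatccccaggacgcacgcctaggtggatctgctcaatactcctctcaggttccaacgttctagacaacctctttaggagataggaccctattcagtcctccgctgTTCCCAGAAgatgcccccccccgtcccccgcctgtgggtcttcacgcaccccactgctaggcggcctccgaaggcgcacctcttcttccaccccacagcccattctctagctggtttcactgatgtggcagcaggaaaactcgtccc
Psme1: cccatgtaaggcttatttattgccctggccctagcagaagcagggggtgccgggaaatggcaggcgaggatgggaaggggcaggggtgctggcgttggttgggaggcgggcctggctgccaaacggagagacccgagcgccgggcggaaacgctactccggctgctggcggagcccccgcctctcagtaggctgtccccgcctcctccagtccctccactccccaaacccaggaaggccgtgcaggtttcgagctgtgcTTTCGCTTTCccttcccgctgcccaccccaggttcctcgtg
Psmb5: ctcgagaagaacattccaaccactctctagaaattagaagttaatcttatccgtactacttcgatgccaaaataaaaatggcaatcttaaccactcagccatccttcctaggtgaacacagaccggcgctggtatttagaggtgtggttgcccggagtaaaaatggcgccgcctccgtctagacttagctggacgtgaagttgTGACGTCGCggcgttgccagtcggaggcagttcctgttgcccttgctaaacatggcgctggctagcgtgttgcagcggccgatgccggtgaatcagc
Psmb6: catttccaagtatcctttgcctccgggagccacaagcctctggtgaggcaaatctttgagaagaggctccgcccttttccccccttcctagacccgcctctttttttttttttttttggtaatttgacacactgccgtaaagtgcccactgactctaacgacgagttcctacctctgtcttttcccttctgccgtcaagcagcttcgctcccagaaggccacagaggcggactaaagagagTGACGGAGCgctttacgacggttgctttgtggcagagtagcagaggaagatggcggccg

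The window of Psmb8 holds a STAT palindrome whose first base lies 97 bases before the start, and that of Psme1 an interferon element core beginning 9 bases after it. Psmb5 and Psmb6 each hold the antioxidant core, beginning 47 and 9 bases before the start used for the window. For Psmb6 that start lies 33 bases downstream of the outermost RefSeq start of the gene, so its match lies downstream of the outermost start. None of the 3 motifs is in the windows of Psmb9 and Psmb10. Over all 32851 promoter windows of the table, the shares with a match were 3.44%, 8.30% and 12.4%. Over the 47 windows of proteasome genes they were 10.6%, 6.38% and 12.8% (5, 3 and 6 windows). Over the 27 windows of constitutive subunits they were 7.41%, 3.7% and 14.8%, and over the 3 immunoproteasome windows 0%, 33.3% and 0%. The 5 windows shown do not stand for their classes: the constitutive Psmb3 and Psmd4 hold the interferon element core and the constitutive Psmd2 holds the STAT palindrome. These are matches of letters only and were not tested for function. The Psmb9 window overlaps that of Tap1, which is read from the opposite strand, by 275 bases; Tap1 and Tap2 encode the transporter that brings peptides to MHC class I, and Psmb9, Tap1, Psmb8 and Tap2 follow each other on chromosome 17.

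The constitutive catalytic subunits differed as little as their replacements. Psmb5 (beta5) was at 11.95, 11.99 and 11.79 in WT arrays 1 to 3 and 12.07, 11.97 and 11.93 in SAP-deficient arrays 1 to 3, with a change of 0.082 ± 0.075 (SE). Psmb6 (beta1) had a change of 0.020 ± 0.084 (SE) and Psmb7 (beta2) one of 0.041 ± 0.073 (SE). In both, array 3 was the lowest of each genotype: for Psmb7 it was at 12.39 in WT and 12.39 in SAP-deficient cells, against 12.47 to 12.62 in the other 4 arrays.

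Set against each other as changes, the induced and constitutive genes were not separated. The mean change was 0.068 over Psmb8, Psmb9, Psmb10 and Psme1 and 0.033 over the 31 constitutive subunits, a difference of 0.035. As the mean deviation of the 4 genes minus that of the 31, it was -0.018 ± 0.056 in WT and 0.018 ± 0.076 in SAP-deficient arrays (SD, n = 3), so the difference was smaller than the spread between arrays. By number it was -0.025, 0.042 and 0.089. Without SAP-deficient array 3 it turned to -0.0081, and without WT array 2 it was 0.003. For each induced subunit less the one it replaces, the differences of changes were 0.010 (Psmb8 less Psmb5), 0.011 (Psmb9 less Psmb6) and 0.051 (Psmb10 less Psmb7). All 3 were negative between the arrays numbered 1 (-0.096, -0.14 and -0.12) and positive between those numbered 2 and 3. No p is given for these means, since the genes were chosen with earlier results of these data known.

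The alpha ring, which forms the gated ends of the core, held the genes of both the smallest and the largest spread. Over the 7 constitutive alpha genes the changes ran from -0.014 to 0.092, and 6 of 7 lay above 0. Psma5 was at 12.10, 12.09 and 12.12 in WT arrays 1 to 3 and 12.09, 12.13 and 12.10 in SAP-deficient arrays 1 to 3, the smallest range of the 49 genes (0.042 log2 units). Psma1 had the largest (0.46), at 11.42, 11.47 and 11.00 in WT arrays 1 to 3 and 11.32, 11.38 and 11.14 in SAP-deficient arrays 1 to 3. It was low in both arrays numbered 3, and its change was -0.014 ± 0.14 (SE). Psma4 had the largest change of the 7, 0.092 ± 0.065 (SE), with 0.14, 0.025 and 0.11 by number. Psma8, the germ-cell variant, was dim in all arrays (4.74 to 5.15), with a change of 0.18 ± 0.11 (SE) at levels below the median signal.

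All 4 non-catalytic genes of the beta ring lay above 0. Psmb2 (beta4) was at 11.78, 11.80 and 11.80 in WT arrays 1 to 3 and 11.96, 11.85 and 11.90 in SAP-deficient arrays 1 to 3. Every SAP-deficient array lay above every WT array, by 0.043 between the nearest, and the change of 0.11 ± 0.060 (SE) had the smallest p-value of the 49 genes (0.104, adjusted 1.00, limma). With the matched arrays as a block its p was 0.0372 (adjusted 0.740, limma). Psmb3 (beta3) was at 0.096 ± 0.074 (SE), with 0.089, 0.048 and 0.15 by number, and Psmb4 (beta7) at 0.011 ± 0.047 (SE). Psmb11, the beta5t subunit of thymic epithelium, was dim (3.75 to 4.10), with -0.057 ± 0.11 (SE).

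The 19S particle showed changes of like size. Of its 6 ATPase genes 4 lay above 0, from -0.033 (Psmc5) to 0.069 (Psmc3). Psmc5 was one of the 2 genes lower in SAP-deficient cells at each replicate number, by values of -0.046, -0.033 and -0.020; the other was Psmd11, and 13.1% of all genes had this pattern. Of the 11 non-ATPase genes 8 lay above 0. Psmd3, a lid subunit, was at 10.58, 10.57 and 10.41 in WT arrays 1 to 3 and 10.79, 10.58 and 10.63 in SAP-deficient arrays 1 to 3. Its SAP-deficient arrays lay above its WT arrays by as little as 0.0018, and the change was 0.15 ± 0.097 (SE) (95% interval -0.082 to 0.37; block p 0.0387, adjusted 0.740, limma). Psmd11, another lid subunit, was at -0.039 ± 0.052 (SE), Psmd6 at -0.024 ± 0.080 (SE) and Psmd7 at -0.018 ± 0.10 (SE). Psmb2 and Psmd3 were the 2 of 49 genes with an unadjusted p under 0.05 in the blocked fit, which passed 6.64% of all genes (3.8% as higher, 2.84% as lower); none passed after adjustment, against 0.0055% of all genes.

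The other activators and the inhibitor gave values of the same size. Psme4, encoding the large activator PA200, was at 0.077 ± 0.11 (SE), with 0.047, 0.12 and 0.061 by number. Psmf1, encoding the inhibitor PI31, was at -0.017 ± 0.11 (SE). Assembly chaperones, which place subunits in order while the particle is built, ran from -0.011 to 0.075, and 6 of 7 lay above 0. Psmg4, a chaperone of the alpha ring, was at 0.075 ± 0.10 (SE). Psmd5, a chaperone of the 19S base, was at 9.72, 9.43 and 9.42 in WT arrays 1 to 3 and 9.73, 9.40 and 9.40 in SAP-deficient arrays 1 to 3. Both arrays numbered 1 were higher than the other 4 by about the same amount, so 99.6% of its variance lay between replicate numbers, and its change was -0.011 ± 0.14 (SE). Psmc3ip and Psme3ip1, the genes that match by name only, were at 0.070 ± 0.14 (SE) and -0.0082 ± 0.085 (SE).

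More of the variation followed the array number than the genotype. For the median proteasome gene 69.2% of the variance lay between numbers and 5.35% between genotypes, against 78.7% and 4.51% for the median gene above the median level, and 66.9% and 6.36% for the median of all genes. These are shares of raw sums of squares. The numbers form more groups than the genotypes, so a larger share falls between numbers even without any effect. For the proteasome genes the range over the 6 arrays had a median of 0.22 log2 units, against 0.40 for genes above the median level. WT array 3 was the lowest array for 26 of the 49 genes and for 21 of the 31 constitutive subunits, compared with 33.4% of genes above the median level. SAP-deficient array 1 was the highest for 23 of the 49, compared with 18.1% of genes above the median level.

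**Figure D3:**
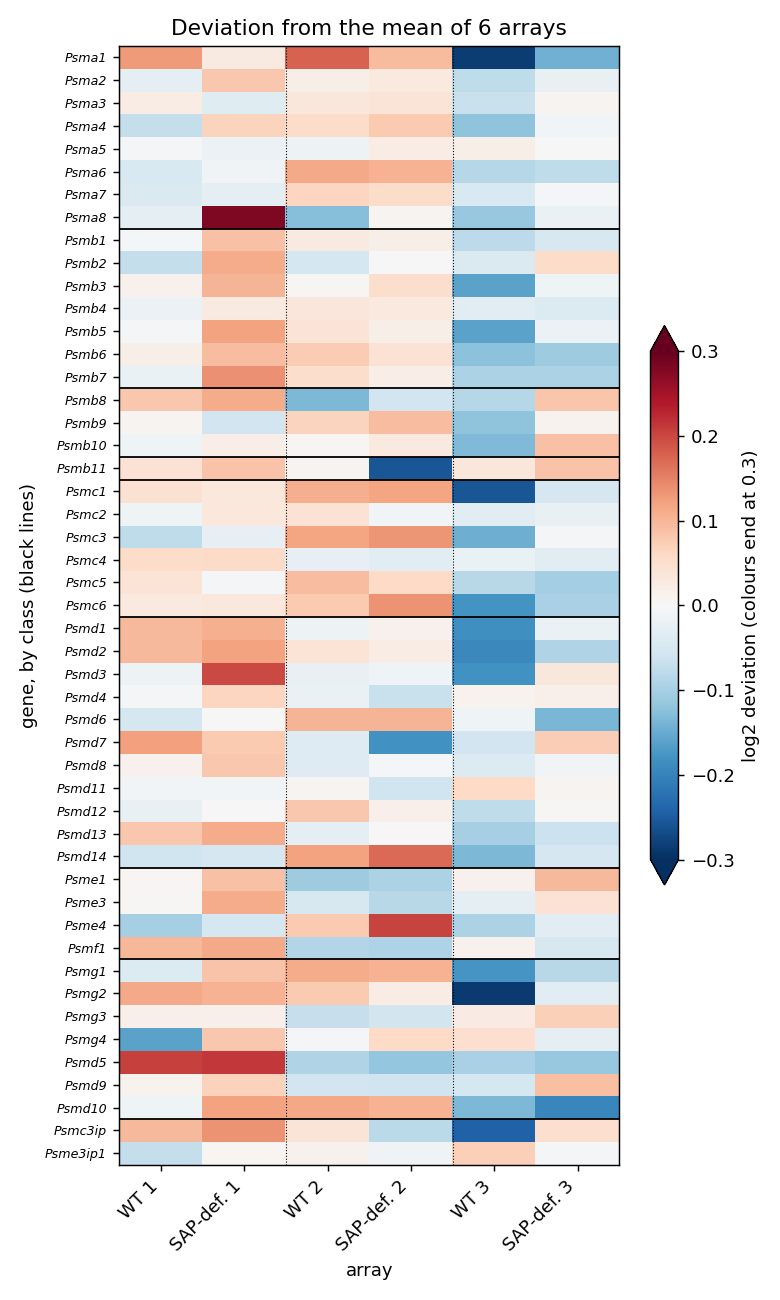
Deviation of each proteasome gene (rows, grouped by class) from its own mean over the 6 arrays (columns, equally numbered arrays side by side), in log2 units; colours are full at 0.3. Blue cells gather in the column of WT array 3, and many rows show like colours within a pair of equally numbered arrays, such as Psmd5 in the arrays numbered 1.

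Mean deviations of the 31 constitutive subunits were 0.0066, 0.040 and -0.096 in WT arrays 1 to 3 and 0.051, 0.032 and -0.034 in SAP-deficient arrays 1 to 3. Those of Psmb8, Psmb9, Psmb10 and Psme1 were 0.021, -0.042 and -0.081 in WT arrays 1 to 3 and 0.040, -0.0081 and 0.070 in SAP-deficient arrays 1 to 3. WT array 3 was thus the lowest for both groups, and SAP-deficient array 3 the highest for the induced genes only. Other gene lists also varied between arrays. The 19 measured cell-cycle genes deviated by -0.50 in WT array 3 and by 0.12 in SAP-deficient array 3, with values from -0.038 to 0.16 in the other arrays. The 6 measured MHC class II genes deviated by 0.11 and -0.35 in those 2 arrays, with values from -0.0795 to 0.247 in the other arrays. The 8 B cell genes deviated by 0.19 and -0.23 there, with values from -0.12 to 0.18 in the other arrays. Whether cell-cycle state or the share of other cells had a part in the proteasome values was not tested.

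**Figure D4:**
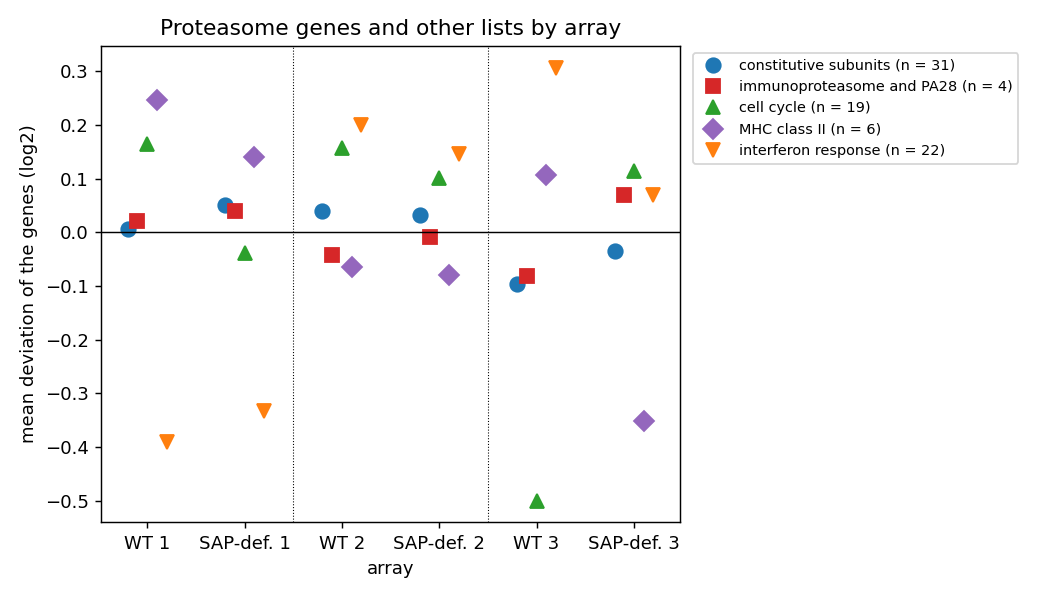
Mean deviation of the genes of each list from their own means over the 6 arrays (log2, y axis) for each array (x axis), for constitutive proteasome subunits, immunoproteasome and PA28 genes, and lists of cell-cycle, MHC class II and interferon-response genes. The proteasome groups stay within -0.096 and 0.070, while cell-cycle genes reach -0.50 in WT array 3 and interferon genes -0.39 in WT array 1.

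Interferon-response genes ranged more widely over the arrays than the immunoproteasome genes, in cultures that all held an antibody against IFN-γ. Their 22 measured members of 26 deviated by -0.39 and -0.33 in the arrays numbered 1 and by 0.069 to 0.31 in the other 4. Their median range over the arrays was 1.14, against 0.21 to 0.25 for Psmb8, Psmb9 and Psmb10. Irf1, a transcription factor that drives immunoproteasome genes, was at 8.94, 10.33 and 9.06 in WT arrays 1 to 3 and 9.14, 10.30 and 9.05 in SAP-deficient arrays 1 to 3, so both arrays numbered 2 stood apart, and its change was 0.054 ± 0.45 (SE). Tap1, whose promoter window overlaps that of Psmb9, was at 9.56, 10.28 and 9.80 in WT arrays 1 to 3 and 9.33, 10.23 and 9.79 in SAP-deficient arrays 1 to 3. It too was highest in both arrays numbered 2, as Psmb9 was, but over a range of 0.95 against 0.21 for Psmb9, and its change was -0.094 ± 0.26 (SE). The likeness of these genes is a description over 6 arrays, not tested. Tap2 was also highest there, with a change of 0.15 ± 0.21 (SE). Psmb8, which lies between Tap1 and Tap2, was instead lowest of its genotype in both arrays numbered 2 (11.57 in WT and 11.64 in SAP-deficient cells), as was Psme1. Psmb10 was highest in array 2 among WT arrays only.

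Of the 12 measured genes of class I presentation (13 listed), 5 lay above 0 and 7 below, with a median of -0.044. B2m, the light chain of MHC class I, was at -0.059 ± 0.044 (SE), and Nlrc5, the activator of class I genes, at -0.037 ± 0.26 (SE). For interferon-response genes 7 of 22 lay above 0 and the median was -0.036. None of either list passed the genotype fit (limma), and 0 had an unadjusted p under 0.05, against 1.46% of all genes. In the blocked fit none passed after adjustment, but 6 of the 22 interferon-response genes (2 higher, 4 lower) and 1 of the 12 class I genes (Calr, lower, encoding calreticulin) had an unadjusted p under 0.05, against 6.64% of all genes. The smallest of these belonged to Isg20, an interferon-induced exonuclease, named after its values were seen. It was at 10.51, 9.76 and 11.18 in WT arrays 1 to 3 and 10.99, 10.17 and 11.49 in SAP-deficient arrays 1 to 3. The groups overlapped, but each SAP-deficient array lay above the WT array of its number, by 0.48, 0.40 and 0.31. The change was 0.40 ± 0.42 (SE), with an adjusted p of 1.00 in the genotype fit and 0.142 in the blocked fit (limma). Without the arrays numbered 3, a setting in which 93 genes were called, the blocked adjusted p was 0.000355 (limma). That fit has few arrays, so its p-values rest mostly on the variance estimated over all genes. When single arrays were left out, the change of Isg20 ran from 0.035 to 0.75.

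Among genes that build and control the proteasome, changes were small apart from Ngly1. Of the 17 measured of 21 listed, 10 lay above 0, with a median of 0.0099. Pomp, the maturation factor of the core, was at 0.00067 ± 0.068 (SE). Nfe2l1, a transcription factor that activates proteasome genes when the protease is inhibited, was at 0.018 ± 0.18 (SE). Ngly1, the N-glycanase that processes the NFE2L1 protein, was at 9.96, 9.95 and 10.22 in WT arrays 1 to 3 and 10.39, 10.37 and 10.57 in SAP-deficient arrays 1 to 3. All SAP-deficient arrays lay above all WT arrays, and the change was 0.40 ± 0.11 (SE), with 0.43, 0.42 and 0.36 by number. It was named after its values were seen, as the only gene of these 4 pathway lists with an unadjusted p under 0.05 in the genotype fit (0.00852, limma; 0.605% of all genes passed as higher). Its adjusted p was 1.00, and 0.142 with the matched arrays as a block. In the block without the arrays numbered 3, where 93 genes were called, it was 0.000557 (limma). That block has few arrays, so its p-values rest mostly on the variance estimated over all genes. In every other alternative the adjusted p of Ngly1 was above 0.05. The change ran from 0.34 to 0.49 over all alternatives. Genes of ubiquitin and the p97 unfoldase had a median of 0.048, and 5 of the 7 measured (12 listed) lay above 0.

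Further probe sets gave the same picture of small values without a shared sign. The 49 genes had 103 single-gene probe sets, of which 0 passed adjustment over all probe sets (0% of all 45037 did) and 1 had an unadjusted p under 0.05, against 1.64% of all (limma). Of the 27 genes with several, 19 had probe sets of both signs, and 13 of 24 did so among probe sets brighter than the median. Psmb8 had a second, dimmer probe set (mean level 6.07) at -0.040 ± 0.16. The single low p belonged to a dim probe set of Psmd2 (mean level 4.33), a 19S base subunit, at -0.37 ± 0.11 (SE). The bright Psmd2 probe set (mean level 11.74) was at 0.035 ± 0.096. With the mean of all probe sets standing for a gene, 29 of the 49 genes lay above 0 and the median was 0.019.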

How the data were processed

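The authors deposited log2 expression values of 45101 probe sets for 6 Affymetrix Mouse Genome 430 2.0 arrays, made with Affymetrix Expression Console and RMA (background correction, quantile normalization and a summary per probe set), per the submitters' processing notes, which state no version. RMA shrinks the differences of dim probes and makes array distributions alike (medians 5.73 to 5.76), so a change in total RNA per cell would not show. The number of arrays limits the precision. Here, 64 control probe sets were left out. GEO's platform annotation named no gene for 9160 of 45037 probe sets, more than 1 for 932 and a single one for 34945, of which 34741 were matched to RefSeq by gene ID.

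Genotypes were compared with limma 3.58.1 (R 4.3.3), lmFit and eBayes with an intensity trend over 18193 genes, Benjamini-Hochberg adjusted and called under 0.05; the script was tested on simulated data. The blocked fit used pairs matched on odd-numbered probe sets of other genes. The correlations given are those of even-numbered ones, which come from the same arrays and so are no independent check. Named are the immunoproteasome, PA28 and constitutive catalytic genes, the 5 smallest p-values in each direction, the extremes of range and of each class, and set pathway genes (Adrm1 had no single-gene probe set). The proteasome genes, lists and tests were chosen with earlier results of these data known. Alternatives were the variance prior, filters, scalings, array weights, probe-set choices, the block and leaving out each array.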

Additional observations from a re-analysis of the deposited data

How the results depend on the processing

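None of the 49 proteasome genes was called in the genotype fit or in any alternative, and their smallest adjusted p ran from 0.542 to 1.00. Calls over all genes numbered 0, but 1 in the replicate block and 93 in the block without the arrays numbered 3, a fit with few arrays. The block, whose pairing rests on the data and not on the labels, left the median change of the proteasome genes at 0.037 and changed no call among them. That median ran from 0.019 to 0.046 over the other alternatives and from -0.0029 to 0.062 when single arrays were left out. The difference between induced and constitutive genes ran from 0.0081 to 0.035 and from -0.0081 to 0.064; the probe set shared by Psme2 and Psme2b, added after seeing the data, made it 0.030. A variance prior from all probe sets, also added later, changed no direction or call among the named genes. Scaling moved the median of all genes from 0.0078 to -0.0011 (second quantile normalization) and 0.017 (median centring).

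Small changes of single genes turned sign in some alternatives, and the cause was not tested. With array weights, Irf1 was at -0.042, Psma5 at -0.00034, Psmb9 at -0.012, Psme3ip1 at 0.019 and Psmf1 at 0.00051. After a second quantile normalization, Nfe2l1 was at -0.011, Pomp at -0.00054 and Psmb4 at -0.0022. In the replicate block without the arrays numbered 3, Nlrc5 was at 0.078, Psmb9 at -0.020, Psmc3ip at -0.041, Psmd6 at 0.026, Psme3ip1 at 0.027 and Psmf1 at 0.0053. Averaging the probe sets of each gene, Psma5 was at -0.027, Psmb4 at -0.010, Psmd11 at 0.0035, Psmd7 at 0.026 and Psmg4 at -0.049. Without _x_at and _s_at probe sets, Psmd11 was at 0.015. After centring on array medians, Psme3ip1 was at 0.00088. When single arrays were left out, changes of genes that turned sign ran from -0.35 to 0.50 for Irf1, -0.090 to 0.20 for Nfe2l1, -0.29 to 0.16 for Nlrc5, -0.046 to 0.055 for Pomp, -0.16 to 0.072 for Psma1, -0.0095 to 0.011 for Psma5, -0.11 to 0.058 for Psmb11, -0.0023 to 0.034 for Psmb4, -0.037 to 0.078 for Psmb6, -0.017 to 0.099 for Psmb7, -0.022 to 0.072 for Psmb9, -0.033 to 0.14 for Psmc3ip, -0.083 to 0.010 for Psmc5, -0.12 to 0.088 for Psmd5, -0.081 to 0.039 for Psmd6, -0.063 to 0.068 for Psmd7, -0.046 to 0.025 for Psme3ip1, -0.0044 to 0.14 for Psme4, -0.079 to 0.028 for Psmf1 and -0.32 to 0.13 for Tap1. Removing 1 array unbalances the matched arrays, so differences between numbers enter these values.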
